A study of Mus musculus with 12 samples.

Results

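The subject is a set of 38 genes that encode the thin filament, the myosin light chains and the scaffold of the sarcomere, the repeating contractile unit of striated muscle. Members were the rows of the count table whose gene name is on the list, and all 38 were found among the 54532 genes listed and kept among the 16393 genes tested. They were sorted by textbook fibre type into 3 embryonic or cardiac genes (Actc1, Tnnt2, Myl4), 11 fast genes, 9 slow genes and 15 genes used by all fibres. RNA was measured in whole tibialis anterior, a leg muscle made mainly of fast fibres, 5 days after glycerol injection, an injury followed by fat formation within the muscle. There were 6 control libraries, labelled wild type, and 6 knockout libraries in which Pparg, the nuclear receptor of fat cell formation, had been deleted conditionally from FAPs (fibro-adipogenic progenitors), mesenchymal cells of muscle that can turn into fat cells. Both groups carry the strain label 129svlmJ and both received glycerol. The sources used here give neither the driver of the deletion, nor the sex and age of the mice, nor whether each library is a separate animal. The p-values therefore cover the spread between libraries, which may be technical.

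Library totals lay between 15716056 and 29790720 counts, and the members took 3.55% to 7.84% of them. Pparg, in CPM (counts scaled to library size), averaged 57.4 ± 8.27 in the 6 controls and 26.4 ± 10.3 in the 6 knockouts (SD). Its log2 fold change was -1.12 ± 0.21 (SE, adjusted p 0.0299 by edgeR's quasi-likelihood test, Benjamini-Hochberg). Mitochondrially encoded genes took 2.66% to 10.8% of the counts. The 3 smallest shares were 2.66% in knockout 6, 3.06% in control 2 and 3.92% in control 6, with knockout 2 close behind at 4.18%. Knockout 6 and controls 2 and 6 stood apart in many of the members. The results below are also given without these 3 libraries where that matters, a cut chosen after the data were seen. In whole muscle, fewer fibres and less RNA per fibre cannot be told apart.

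In the sarcomere, thin filaments of actin, with tropomyosin and the troponins T, I and C laid along them, slide past thick filaments of myosin when calcium binds troponin C. Most of these proteins exist as separate fast, slow and embryonic or cardiac isoforms encoded by different genes. Regenerating fibres first make embryonic and cardiac isoforms, such as cardiac actin and cardiac troponin T, and later replace them with the adult isoforms. Such genes are typically controlled by the myogenic E-box factors such as MyoD and myogenin, by serum response factor at CArG boxes, by TEAD factors at M-CAT elements and by MEF2.

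The start sites of 4 members, 1 of each class, are shown because they are the members highest per length in their class, or the next highest whose window is free of exons. Each window is the stretch of 250 bases before the RefSeq start of the gene (GRCm38.p6), read 5′ to 3′ on the gene's strand, and the Actc1 window was trimmed to 238 bases where an exon of the GENCODE M21 annotation begins. Capitals mark matches to an E-box (CANNTG), a CArG box or an M-CAT element (CATTCC, searched on both strands), and no marked matches overlap. The Actc1 window lies at chr2:114052888-114053125 on the minus strand, the Mylpf window at chr7:127211358-127211607 on the plus strand, the Tnnc1 window at chr14:31208062-31208311 on the plus strand and the Acta1 window at chr8:123894776-123895025 on the minus strand.
Actc1: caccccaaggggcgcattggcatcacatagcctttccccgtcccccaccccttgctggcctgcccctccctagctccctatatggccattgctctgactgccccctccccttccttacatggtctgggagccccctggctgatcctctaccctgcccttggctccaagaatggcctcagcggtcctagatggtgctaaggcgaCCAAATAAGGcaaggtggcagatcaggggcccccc
Mylpf: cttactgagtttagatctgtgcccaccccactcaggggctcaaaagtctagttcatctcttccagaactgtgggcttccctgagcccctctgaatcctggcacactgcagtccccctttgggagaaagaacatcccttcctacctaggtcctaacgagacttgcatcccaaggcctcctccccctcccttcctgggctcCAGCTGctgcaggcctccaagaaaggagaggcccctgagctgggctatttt
Tnnc1: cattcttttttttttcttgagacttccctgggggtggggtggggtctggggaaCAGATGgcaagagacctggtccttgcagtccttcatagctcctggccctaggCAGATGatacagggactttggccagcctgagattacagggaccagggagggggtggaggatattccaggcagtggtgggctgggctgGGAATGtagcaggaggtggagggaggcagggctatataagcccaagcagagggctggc
Acta1: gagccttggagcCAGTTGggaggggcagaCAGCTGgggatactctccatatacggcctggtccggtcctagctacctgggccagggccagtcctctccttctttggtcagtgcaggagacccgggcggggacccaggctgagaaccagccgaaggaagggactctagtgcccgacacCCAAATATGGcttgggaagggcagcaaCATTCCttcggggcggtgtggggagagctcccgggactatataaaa
The Acta1 window holds 2 E-boxes, 1 CArG box and 1 M-CAT element. The Actc1 window holds 1 CArG box and no E-box, the Mylpf window 1 E-box, and the Tnnc1 window 2 E-boxes and 1 M-CAT element.

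RefSeq windows were found for 27 of the 38 members, 33 windows in all because some genes have several starts. A CArG box occurred in 18.18% of the member windows (Acta1, Actc1, Ldb3, Myl3 and Myom1) and in 1.47% of all 32851 windows of the same length. E-boxes occurred in 87.88% of member windows and 66.22% of all windows, M-CAT elements in 24.24% and 12.64%, and MEF2 sites in 9.09% (Myoz2, Ttn and Xirp2) and 0.51%. TATAAA, searched on the gene's strand only, went the other way, with 6.06% of member windows and 7.59% of all windows. A match is a run of letters only, and binding was not measured.

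Some troponin T and I genes lie near each other on a chromosome (GRCm38, coordinates of the deposited table). Cardiac troponin T, Tnnt2 (ENSMUSG00000026414, chr1:135836354-135852260), lies downstream of slow troponin I, Tnni1 (ENSMUSG00000026418, chr1:135779434-135810989), both on the plus strand. Fast troponin T, Tnnt3 (ENSMUSG00000061723, chr7:142498836-142516009), likewise lies downstream of fast troponin I, Tnni2 (ENSMUSG00000031097, chr7:142441808-142444410), on the plus strand. The other members with the smallest p were Xirp1 (ENSMUSG00000079243, chr9:120013755-120023598, minus strand) and Mybph (ENSMUSG00000042451, chr1:134193448-134201232, plus strand).

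No member differed between knockout and control at an adjusted p under 0.05 (edgeR), against 0.799% of all tested genes, 0.0488% higher and 0.75% lower. At an unadjusted p under 0.05, 3 members were higher in knockouts (Xirp1, Mybph and Tnnt2) and none lower, where 3.79% of all tested genes were higher, 5.68% lower and 9.47% either. Of the 38 members, 37 had a positive fitted fold change, against 49.5% of all tested genes. These genes share the same fibres and libraries, so the 37 are not separate pieces of evidence. Without the 3 libraries of lowest mitochondrial share the number was 28, and with the mitochondrial share as a covariate it was 38. In each of these fits 7 members had an unadjusted p under 0.05 (edgeR). In no member did the 2 groups of 6 separate in CPM without overlap, which 1.43% of all tested genes did. DESeq2 called none of the 38 (smallest adjusted p 0.118, 6 unadjusted under 0.05, against 2.43% of genes called), and limma-voom with quality weights also called none (smallest adjusted p 0.0537, for Tnnt2, 8 unadjusted, against 2.4%).

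Class medians lay close together. The median log2 fold change was 0.31 for the 9 slow genes, 0.22 for the 3 embryonic or cardiac genes, 0.17 for the 15 genes of all fibres and 0.12 for the 11 fast genes, beside -0.0013 over all tested genes. The difference between classes was not tested. The fast median moved to -0.04 without the 3 libraries of lowest mitochondrial share, while the slow median was then 0.33 and the embryonic or cardiac median 0.27. With the mitochondrial share as a covariate the fast median was instead the largest, at 0.33, beside 0.32 for slow, 0.29 for all-fibre and 0.25 for embryonic or cardiac genes, so the order of the classes depends on this choice.

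**Figure D1:**
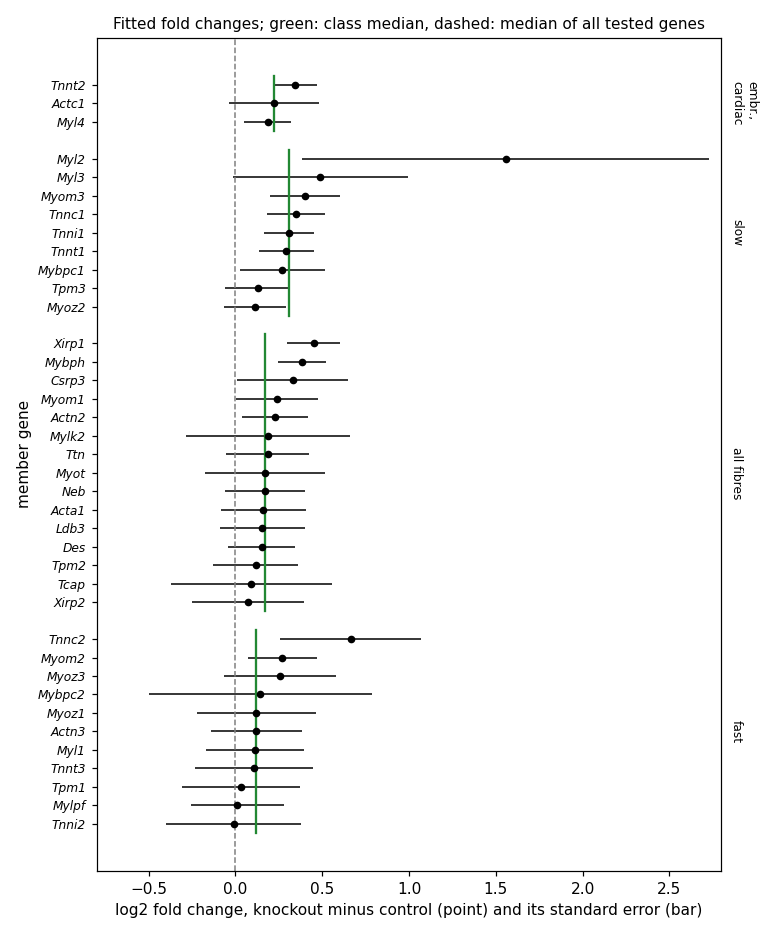
Log2 fold changes of the 38 members (points, knockout minus control) with their standard errors (bars, edgeR), by isoform class; green lines are class medians and the dashed line is the median of all tested genes. Tnni2 alone lies below zero, at -0.01, and Myl2 has the widest bar, with a standard error of 1.17.

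Levels between genes were compared per length, as deposited FPKM averaged over the 12 libraries. Acta1, skeletal actin and the backbone of the adult thin filament, stood first at 7447 FPKM, followed by the fast regulatory light chain Mylpf at 5849, fast troponin T Tnnt3 at 3208 and cardiac actin Actc1 at 2374. Next came fast troponin I Tnni2 at 1771, the fast essential light chain Myl1 at 1517, the tropomyosin Tpm2 at 1488 and desmin (Des), the intermediate filament around the Z-disc, at 742. Acta1 exceeded Mylpf, and Mylpf exceeded Tnnt3, in 12 of 12 libraries, but the order of Tnnt3 over Actc1 held in 8, of Actc1 over Tnni2 in 7 and of Tnni2 over Myl1 in 7.

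The highest slow members per length were Mybpc1, the slow myosin binding protein C that steadies thick filaments, at 264 FPKM, and the slow troponins Tnnc1 at 180, Tnnt1 at 152 and Tnni1 at 137. The embryonic essential light chain Myl4 stood at 226 FPKM and cardiac troponin T Tnnt2 at 49.7. At the bottom were the slow light chains Myl3 at 1.73 and Myl2 at 1.46 FPKM and fast troponin C Tnnc2 at 1.04. Tnnc2 shares 74.0% of its exon bases with Ube2c on the opposite strand, and its place in this order cannot be read as a level. For each neighbouring pair in this order except Xirp1 (11.9) and Myoz3 (4.15), the ranges over the 12 libraries overlapped. The length of Myoz3 in the deposited table is 870 bases and its exons in GENCODE M21 cover 3436, so its FPKM depends on which exons were counted. The length of Tnnt2 covers all its M21 exons, 7752 bases, against 1583 for Tnnt3, so the order by FPKM also depends on the lengths used.

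Among the embryonic or cardiac genes, cardiac troponin T (Tnnt2) had the smallest p. In controls Tnnt2 ranged from 276 CPM through a median of 331 to 447, and in knockouts from 397 through 419 to 517. Controls 2 and 6 overlapped the knockouts, and the other 4 controls lay below all 6 knockouts. The log2 fold change was 0.34 ± 0.13 (SE, fold change 1.27, adjusted p 0.340 by edgeR, Benjamini-Hochberg). Leaving out each library in turn gave 0.29 to 0.43, with adjusted p from 0.172 to 0.636.

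Cardiac actin (Actc1) is the main actin of young and newly formed fibres. Its level ran from 1997 through a median of 3422 to 5766 CPM in controls and from 2631 through 3752 to 6710.45 in knockouts. The highest were knockout 5, control 1 and knockout 3 and the lowest control 6 and knockout 6, so the groups overlapped across most of the range, with a log2 fold change of 0.22 ± 0.26 (SE, adjusted p 0.918 by edgeR). Myl4, the light chain of embryonic muscle and atrium, ranged from 829 through 984 to 1146 CPM in controls and from 906 through 1067 to 1519 in knockouts. Knockouts 5 and 3 lay above all controls and the other 4 lay among them, and the log2 fold change was 0.18 ± 0.13 (SE, adjusted p 0.794 by edgeR).

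In heart muscle these genes come with Myl7, Nppa, Myh6 and Ryr2, which separates heart from embryonic skeletal fibres. Myl7, the atrial regulatory light chain, had no read in any of the 12 libraries. The summed level of the 7 heart markers was 4.25 to 7.83 CPM in controls and 4.83 to 8.30 in knockouts, and only Tnni3 and Mybpc3 had enough reads to be tested. Smooth muscle markers summed to 609 to 965 CPM in controls and 747 to 1084 in knockouts, with 0 of 6 called. Their part in the level of the cardiac isoforms was not tested.

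Slow thin filament genes had small positive fold changes, none past the adjusted threshold. Slow troponin I (Tnni1), the inhibitory subunit, ran from 370 through a median of 413 to 551 CPM in controls and from 397 through 556 to 669 in knockouts. Knockouts 3, 4 and 5 lay above every control, and knockouts 1, 2 and 6 among them, giving a log2 fold change of 0.31 ± 0.15 (SE, adjusted p 0.537 by edgeR). Slow and cardiac troponin C (Tnnc1), the calcium sensor, ran from 111 through 166 to 225 CPM in controls and from 184 through 212 to 242 in knockouts. Its 3 lowest libraries were controls 3, 4 and 5, below all knockouts, and controls 1, 2 and 6 lay within the knockout range (log2 fold change 0.35 ± 0.17 SE, adjusted p 0.551 by edgeR).

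Mybpc1 ran from 656 through 1229.8 to 1461 CPM in controls and from 634 through 1342 to 1719 in knockouts. Controls 2 and 6 and knockout 6 were its lowest libraries and knockouts 5 and 4 its highest (log2 fold change 0.27 ± 0.24 SE, adjusted p 0.861 by edgeR). The third slow troponin, Tnnt1, had means of 303 ± 37.7 and 371 ± 99.8 CPM (SD, n = 6 each), and knockouts 3, 4 and 5 lay above all controls. Myom3, a myomesin of the M-band that links thick filaments, had 142 ± 18.2 and 187 ± 67.6 CPM, with the same 3 knockouts above all controls. Tropomyosin 3 (Tpm3) had 233 ± 65.2 and 254 ± 64.3 CPM, and myozenin 2 (Myoz2), a Z-disc protein that binds calcineurin, 113 ± 32.9 and 123 ± 26.5.

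The slow light chains were scarce and uneven. The slow and cardiac regulatory light chain Myl2 ran from 0.280 through a median of 0.336 to 5.84 CPM in controls and from 0.382 through 0.584 to 22.3 in knockouts, and was described in full after its values were seen. Knockout 2 alone was high, with control 6 next, and the other 10 libraries lay at or below 1.57 CPM. The log2 fold change of 1.56 ± 1.17 (SE, adjusted p 0.811 by edgeR) became -1.03 without knockout 2 and 2.86 without control 6. The slow essential light chain Myl3 also peaked in knockout 2, at 10.998 CPM, with the other libraries between 1.11 and 4.76. Its log2 fold change of 0.49 became -0.08 without knockout 2.

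Knockout 2 and control 6 also held the most Tpm3, at 374 and 346 CPM against 177 to 272 in the other 10 libraries. Csrp3, a Z-disc and nuclear LIM protein that responds to stretch, reached 224 CPM in knockout 5, 213 in control 6 and 210 in knockout 2, and was lowest in control 5 at 52.6. Outside the members, the slow myosin heavy chain Myh7 was at 12.3 CPM in knockout 2 and between 0.343 and 2.61 in the others, and control 6 was at 1.57. The type 2A heavy chain Myh2 was at 219 CPM in control 6 and 208 in knockout 2, with 129 the highest of the other 10. The slow troponins in knockout 2 and control 6 lay inside the range of the other libraries. Tnni1 was 521 and 377 CPM there, Tnnt1 321 and 270, and Tnnc1 235 and 199. Tnnc1 in knockout 2 was close to its highest value, 242 CPM in knockout 3.

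**Figure D2:**
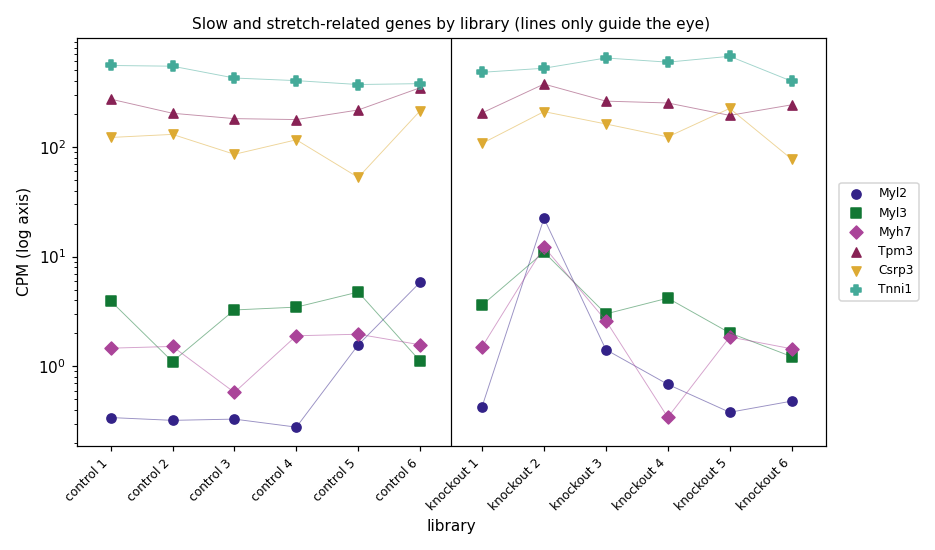
CPM (log axis) of 5 members and of Myh7 in each of the 12 libraries; each symbol is 1 gene in 1 library and the lines only guide the eye. Myl2, Myl3 and Myh7 peak in knockout 2, while Tnni1 stays between 370 and 669 CPM throughout.

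As a class, the fast genes had the largest median ratio of highest to lowest library, and their median fold change was the smallest of the classes in the reported fit. That median was also the smallest in every alternative except the mitochondrial covariate, the fit without control 5 and the fit without knockout 5. Mylpf, the fast regulatory light chain, ran from 3780 through a median of 7071 to 8064 CPM in controls and from 2930.01 through 6543 to 9573 in knockouts. Knockout 6 and controls 2 and 6 were lowest, knockout 4 was highest, and the groups overlapped throughout (log2 fold change 0.01 ± 0.27 SE, adjusted p 0.999 by edgeR). Myom2, the fast M-band myomesin, ran from 413 through 697 to 739 CPM in controls and from 395 through 811 to 881 in knockouts. Of the knockouts, 5 lay above all 6 controls and knockout 6 below all of them (log2 fold change 0.27 ± 0.20 SE, adjusted p 0.803 by edgeR, and 0.40 with an adjusted p of 0.352 without knockout 6).

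The fast troponin pair Tnnt3 and Tnni2 had log2 fold changes of 0.11 ± 0.34 and -0.01 ± 0.39 (SE). Tnnt3 ran from 2411 through 5667 to 6786 CPM in controls and from 1886 through 5571 to 8044 in knockouts, and Tnni2 from 1067 through 3113 to 3831 and from 812 through 2626 to 4130.26. In both genes the 3 lowest libraries were knockout 6 and controls 2 and 6, the highest was knockout 4, and the sign for Tnni2 turned positive in 13 of 24 alternative analyses. Myl1 had 3051 ± 1187 CPM in controls and 3304 ± 1012 in knockouts (SD of 6 libraries each), Tpm1 4435 ± 1847 and 4539 ± 1761, and the fast alpha-actinin Actn3 1587 ± 535 and 1725 ± 497. Fast myosin binding protein C, Mybpc2, was the most uneven fast member, with a 15.3-fold range from 48.2 CPM in control 2 to 736 in knockout 1. The calcineurin-binding myozenins Myoz1 and Myoz3 had log2 fold changes of 0.12 and 0.26.

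Fast troponin C (Tnnc2) cannot be read as a level here. It had 3 to 45 reads per library, 0.152 through a median of 0.637 to 1.27 CPM in controls and 0.505 through 1.10 to 1.49 in knockouts, far fewer than its partners Tnnt3 and Tnni2. Knockouts 3 and 5 lay above all controls and control 6 was lowest (log2 fold change 0.66 ± 0.40 SE, adjusted p 0.706 by edgeR). Of the exon bases of Tnnc2, 74.0% are shared with Ube2c, a cell-cycle gene on the opposite strand of chromosome 2, and the sources used here do not say whether reads were counted by strand. Ube2c averaged 37.6 ± 3.78 CPM in controls and 38.3 ± 4.18 in the 6 knockouts (SD), and the part of the overlap in the low count was not tested.

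Of the genes used by all fibres, the Xin repeat protein Xirp1, which binds actin at attachment sites and is known for its rise in injured muscle, had the smallest p. Xirp1 ran from 50.1 through a median of 56.7 to 79.5 CPM in controls and from 53.5 through 87.3 to 100.3 in knockouts. Knockouts 2, 3, 4 and 5 lay above all controls, and knockouts 1 and 6 among them. The log2 fold change was 0.45 ± 0.15 (SE, fold change 1.37, adjusted p 0.265 by edgeR). With each library left out in turn its adjusted p was 0.0915 to 0.498 (edgeR). Its relative Xirp2 had a log2 fold change of 0.07 ± 0.32 (SE), with knockout 2 highest at 564 CPM and knockout 6 lowest at 119.

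Mybph, a small relative of the myosin binding proteins C, ran from 110 through a median of 125 to 142 CPM in controls and from 126 through 153 to 229 in knockouts. Knockouts 3, 4, 5 and 6 lay above all controls and knockouts 1 and 2 among them (log2 fold change 0.38 ± 0.14 SE, fold change 1.30, adjusted p 0.319 by edgeR). Of its exon bases, 49.9% are shared with Adora1 on the opposite strand, which averaged 6.59 ± 2.04 CPM in controls and 7.45 ± 2.69 in the 6 knockouts (SD). Acta1, the most abundant member, ran from 6528 through 12314 to 13858 CPM in controls and from 6085 through 12843 to 15840.2 in knockouts. Knockout 6 and controls 6 and 2 held 6085 to 7099 CPM and the other 9 libraries 11369 to 15840.2 (log2 fold change 0.16 ± 0.25 SE, adjusted p 0.938 by edgeR).

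The giant proteins and most Z-disc proteins were lowest in the same 3 libraries as Acta1. Titin (Ttn), the spring between Z-disc and M-band, had 2904 ± 828 CPM in controls and 3301 ± 978 in knockouts, and nebulin (Neb), which runs along the thin filament, 1499 ± 384 and 1685 ± 516 (SD, n = 6 each). Desmin had 2667 ± 565 and 2961 ± 757 CPM, and the Z-disc alpha-actinin Actn2 833 ± 166 and 978 ± 258. Telethonin (Tcap), which caps titin at the Z-disc, varied most of the 15, by 7.40-fold from knockout 6 to knockout 1, followed by Mylk2, the kinase of the fast regulatory light chain, with a 6.52-fold range from control 2 to knockout 1. Tpm2, Ldb3, Myot, Myom1 and Csrp3 had log2 fold changes between 0.12 and 0.33.

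**Figure D3:**
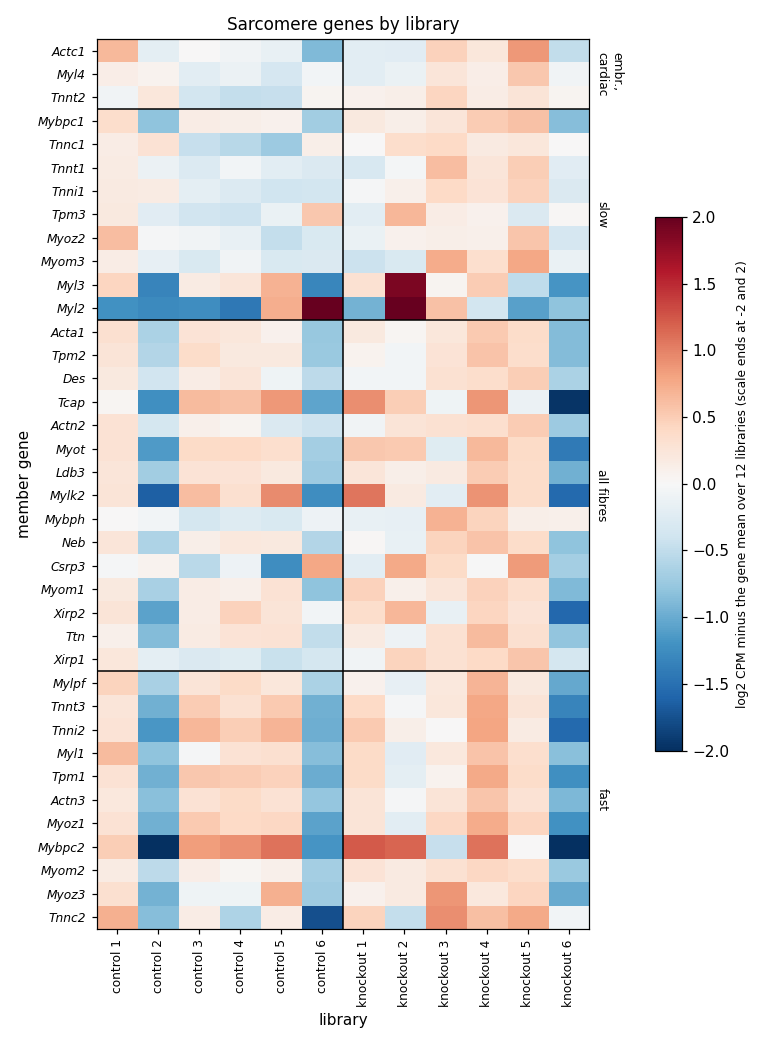
Log2 CPM of each of the 38 members minus its mean over the 12 libraries, with libraries in columns, members in rows by class, and the colour scale ending at -2 and 2. Controls 2 and 6 and knockout 6 are blue in most fast and all-fibre rows and not in the embryonic or cardiac rows as a block.

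Another pattern ran across libraries of both groups. Controls 2 and 6 and knockout 6, the 3 libraries of lowest mitochondrial share, all lay below the other 9 in 23 of the 38 members. Of all tested genes, 6.08% did so. The cut at 3 libraries was chosen after the data were seen, so the 23 describe a pattern and do not test it. The count was 10 of 11 fast genes (all but Tnnc2), 11 of 15 genes of all fibres, 2 of 9 slow genes and 0 of 3 embryonic or cardiac genes. Actc1 was still lowest in control 6 and knockout 6, at 1997 and 2631 CPM. Control 2 held 3225 CPM of it, against 3136 to 6710.45 in the other 9. Knockout 6 was the lowest library in 19 members. Knockout 4 was the highest in 14, knockout 5 in 9 and knockout 3 in 6.

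Tnnt3 was at 1886 to 2425 CPM in these 3 libraries and at 4616 to 8044 in the other 9, whereas Tnnt2 was at 397 to 447 and at 276 to 517. Knockout 2, next in mitochondrial share at 4.18%, held 4616 CPM of Tnnt3 and 11369 of Acta1, well above those 3 libraries. The spread of a class between libraries of 1 group, taken as the SD of its mean log2 CPM, was 0.67 for fast genes, 0.46 for genes of all fibres, 0.33 for slow genes and 0.26 for embryonic or cardiac genes. The median ratio of highest to lowest library was 3.90 for fast, 2.73 for all-fibre, 2.19 for slow and 1.88 for embryonic or cardiac members. Markers of mature fibres that are not members moved with them: the 6 fibre markers summed to 3487 to 3945 CPM in the 3 libraries and to 7549 to 11510.3 in the other 9. The control group holds more of the 3 libraries (controls 2 and 6) than the knockout group (knockout 6). Without them the median log2 fold change of the fast genes moved from 0.12 to -0.04. The part of mitochondrial share or fibre content in the member levels was not tested.

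**Figure D4:**
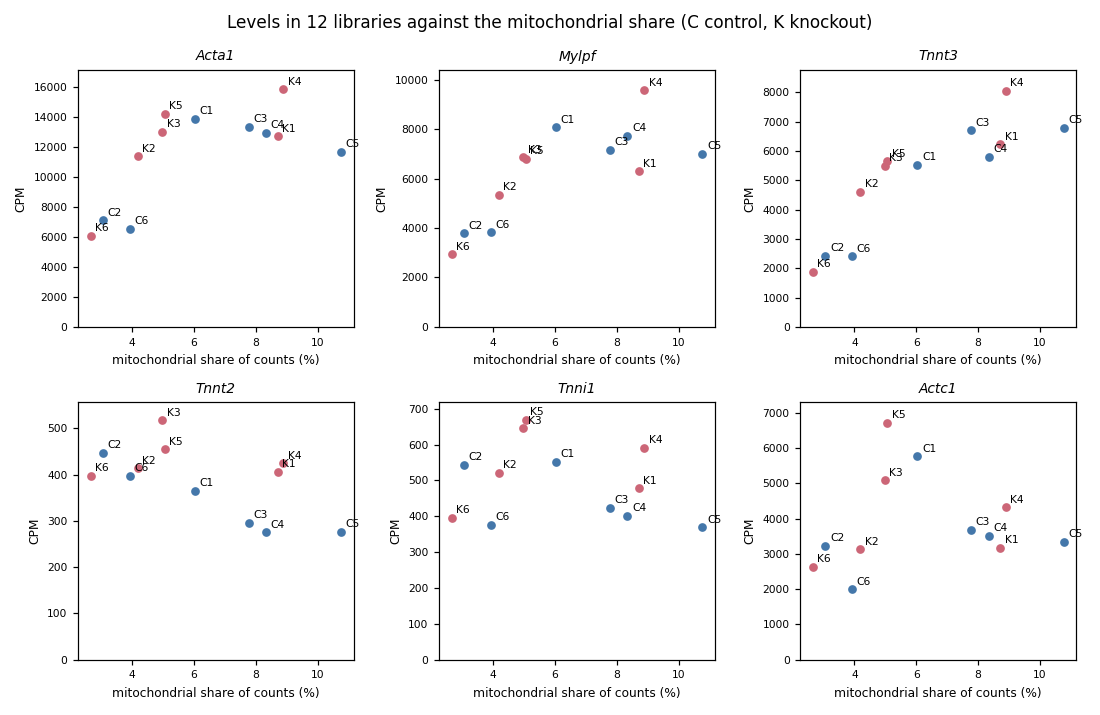
CPM of 6 members (vertical axes from 0) against the mitochondrial share of counts in percent; blue points are controls (C), red points knockouts (K). Acta1, Mylpf and Tnnt3 are low in K6, C2 and C6, whose shares are 2.66% to 3.92%, whereas Tnnt2 and Tnni1 in these libraries lie inside the range of the rest. Actc1 is lowest in C6 and K6, and C2 lies inside the range of the rest.

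Isoform shares set the members of a family against each other within each library, from counts divided by gene length. None of the 13 shares passed the threshold between the groups in exact permutation tests (two-sided, 6 libraries each, raw p from 0.617 to 0.974, every adjusted p 0.974 over the 13). Cardiac actin made up 20.4% to 30.1% of the actin of Acta1 and Actc1 in controls (mean 23.9% ± 4.21) and 19.2% to 31.0% in knockouts (24.6% ± 5.04). The knockout and control values were interleaved, with knockout 5, control 2 and knockout 6 the highest.

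The size of a share depends on the lengths used, which cover all M21 exons: 7752 bases for Tnnt2, 2204 for Tnnt1 and 1583 for Tnnt3. With counts not divided by length, the group difference was 0.631 points for Tnnt2 and 2.10 for Tnni1 (adjusted p 0.985, exact permutation). With division, cardiac troponin T made up 1.70% ± 1.16 of troponin T in controls and 1.84% ± 0.97 in knockouts, and slow troponin T 4.87% ± 2.23 and 5.30% ± 2.30 (SD, n = 6 each). Slow troponin I made up 8.22% ± 5.33 of troponin I in controls and 9.21% ± 4.21 in knockouts. Myl4 made up 14.2% ± 5.96 and 14.0% ± 4.07 of the essential light chains. Each of these spreads was many times the difference between the group means.

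Controls 2 and 6 and knockout 6 had the 3 highest values in 5 of the 13 shares, those of Tnnt2, Tnnt1, Tnni1, Myl4 and Myoz2. Tnni1 made up 11.4% to 17.5% of troponin I in these libraries and 3.86% to 10.1% in the other 9. Tnnt2 made up 3.02% to 3.74% of troponin T there and 0.801% to 1.77% in the others, and Myl4 20.8% to 22.3% and 9.03% to 15.2%. In these families the denominators hold fast genes that were low in the same libraries. So do the denominators of the Tpm3, Mybpc1, Actn2 and Myom3 shares, in which the 3 libraries overlapped the rest. The part of these fast genes in the shares was not tested. Without the 3 libraries the differences of Tnnt2 and Tnni1 became 0.498 and 2.56 percentage points, with adjusted p of 0.413 and 0.578 (exact permutation).

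In other families the same 3 libraries overlapped the rest. Mybpc1 made up 71.7% ± 12.3 of myosin binding protein C in controls and 72.8% ± 13.4 in knockouts, and Actn2 29.8% ± 5.89 and 30.5% ± 3.59 of alpha-actinin. Myom3 made up 18.2% ± 4.13 and 19.3% ± 5.84 of the myomesins, and Tpm3 2.09% ± 1.35 and 2.05% ± 1.04 of the tropomyosins. Each of these 4 shares had 2 of its 3 highest values in those libraries, for example 80.2% to 91.6% against 58.4% to 82.6% for Mybpc1 and 2.53% to 4.62% against 1.06% to 3.07% for Tpm3. Myl2 made up 0.0020% to 0.0832% of regulatory light chain in 11 libraries and 0.227% in knockout 2. Tnnc1 came to at least 99.03% of troponin C in each library, a share that rests on the count of Tnnc2 given above and cannot be read as a level.

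**Figure D5:**
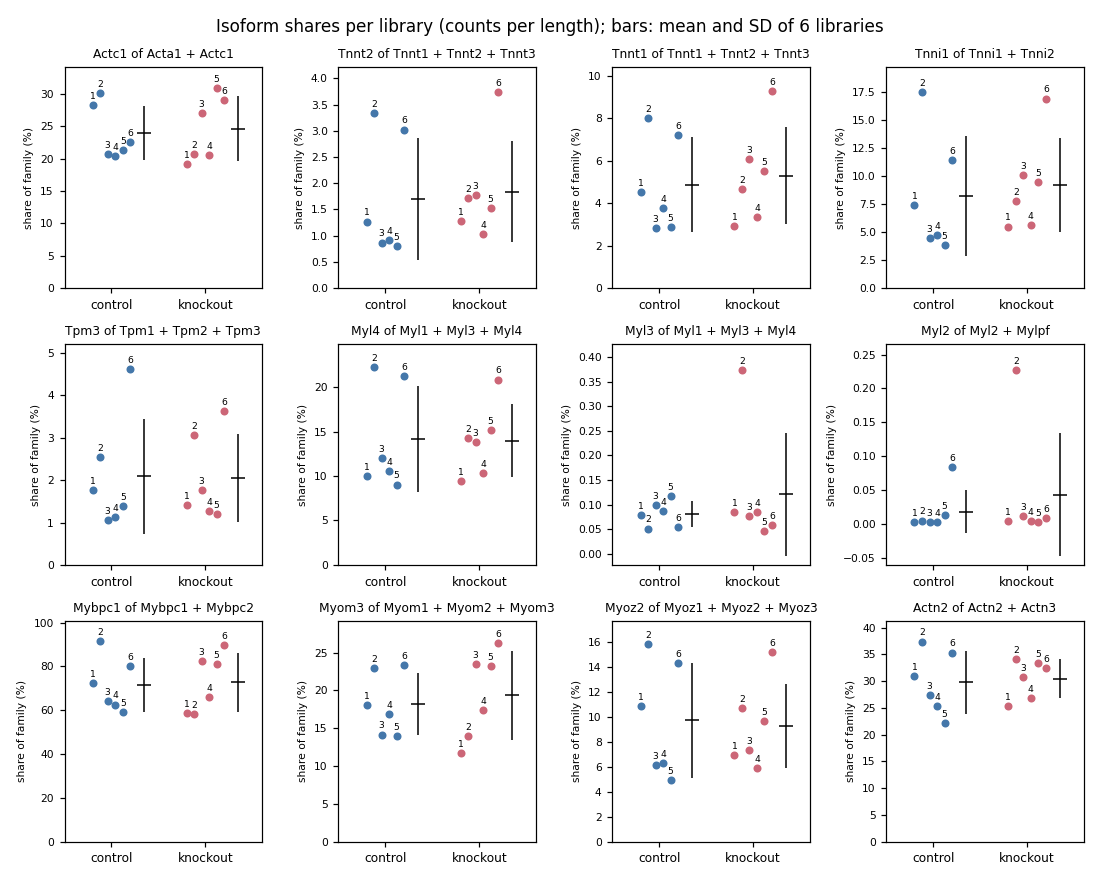
Share of a family, in percent of its counts per length, in each control (blue) and knockout (red) library, numbered, for 12 of the 13 shares (Tnnc1 is not drawn); bars give the mean and SD of 6 libraries. Libraries 2 and 6 of the controls and 6 of the knockouts are the highest for Tnnt2, Tnnt1, Tnni1, Myl4 and Myoz2.

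The other genes of the same structures were counted from lists. Of 37 other sarcomere and assembly genes, 0 passed the adjusted threshold and the median log2 fold change was 0.21. A positive fold change was found in 35 (49.5% of all tested genes), which, like the members, share fibres and libraries. The smallest p among them belonged to Flnc, the muscle filamin that crosslinks actin at the Z-disc (457 ± 50.6 and 591 ± 103 CPM, log2 fold change 0.37, adjusted p 0.238 by edgeR), Obsl1, a relative of obscurin (0.34, adjusted p 0.245 by edgeR), and Palld, palladin (0.29, adjusted p 0.290 by edgeR). The embryonic and neonatal genes Myh3, Myh8 and Chrng had log2 fold changes of 0.36, 0.32 and 0.25, and none was called. Of 8 other fast genes 0 were called, with a median of 0.09, and of 4 tested slow genes 0, with a median of 0.43. Among the slow genes Myh7 was at 1.15 and Myh7b at 0.56. Myh7 was high in knockout 2 alone, at 12.3 CPM, and its medians were 1.55 CPM in controls and 1.68 in knockouts.

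Of 20 regulators of sarcomere genes, 0 were called, 17 were positive and 6 had an unadjusted p under 0.05, each higher in knockouts. Of all tested genes, 49.5% were positive and 3.79% were higher at that p, but the list was chosen with earlier results of these data known. The genes share the same libraries, so the 6 are not separate pieces of evidence. They included Tead4, which binds M-CAT elements (22.3 ± 2.96 and 30.1 ± 5.47 CPM, log2 fold change 0.43, adjusted p 0.160 by edgeR), the E-box factor Myod1 (87.9 ± 13.02 and 130 ± 33.6 CPM, 0.56, adjusted p 0.160 by edgeR) and Mef2d (134 ± 3.84 and 162 ± 23.3 CPM, 0.27, adjusted p 0.234 by edgeR). Of 4 myoblast markers, Myod1 again among them, 0 were called, with Cdh15 at 51.2 ± 9.05 and 77.0 ± 18.9 CPM (0.59, adjusted p 0.128 by edgeR). Lower in knockouts and past the threshold were 2 of 7 fat cell markers, Fabp4 and Lpl, and 2 of 6 FAP markers, Col15a1 and Gsn. At an unadjusted p under 0.05 (edgeR), 7 of 7 fat cell and 3 of 6 FAP markers were lower, against 5.68% of all tested genes. The groups did not overlap in 6 fat cell and 2 FAP markers (1.43% of all tested genes), and fat cell log2 fold changes were -2.08 to -1.22. None of the macrophage, endothelial or tendon markers was called. CPM are shares of a library, and the part of fewer fat cell or FAP reads in the positive fold changes of the members was not tested.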

How the data were processed

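RNA of 12 whole muscle libraries was sequenced after poly-T selection, per the labels' protocols. The counts deposited by the authors are whole reads per gene with no normalization, made, per the submitters' processing notes, with fastp, HISAT2 2.0.5 and featureCounts on GRCm38 (mm10). The FPKM values deposited by the authors are counts per gene length and library size; the sources used here give no strand setting or annotation version. The columns were matched to samples by the library names in the labels.

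Genes were kept by filterByExpr (minimum count 10, minimum total 15), scaled by TMM and tested with edgeR 4.0.16 robust quasi-likelihood F tests in R 4.3.3, with no covariate, Benjamini-Hochberg adjustment over the 16393 genes and a threshold of 0.05. CPM were scaled by TMM library size, and a prior count of 2 was added for log2 CPM. Fold changes are knockout minus control. Standard errors are the fold change over the root of F. The step was tested on simulated data. Isoform shares were compared by two-sided exact permutation over all 924 assignments, with p adjusted over 13 shares; the smallest p possible was 0.0022. Counts of genes called take the adjusted threshold unless stated.

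Shown in full were members past the threshold or without overlap, and in each class the 2 with the smallest p and the 1 highest per length; of other lists up to 3 genes with the smallest p. Further genes, Myl2 among them, were named after their values were seen. The members and lists were chosen with earlier results of these data known. Overlap with other genes came from GENCODE M21, and shared sequence from 50-base words: Myl1 shared 23.4% of its words with Mylf-ps and Tpm3 17.0% with Tpm3-rs7, so their counts are uncertain where reads could be split. No libraries were duplicates: within groups, chi-square per degree of freedom was 12.9 to 159 over 30 pairs. Alternatives covered scaling, DESeq2 1.42.0, limma 3.58.1 (voom, and log2 FPKM with pseudocounts of 1 and 0.1), the filter, a replicate block, a surrogate variable (sva 3.50.0), the mitochondrial share as covariate, each library left out and, chosen after seeing the data, the 3 libraries of lowest mitochondrial share left out.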

Additional observations from a re-analysis of the deposited data

Results flagged for a closer look

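Levels of the members (log2 CPM) and the isoform shares were searched for a library far from the other 5 of its group by Dixon's test. Of 102 groups tested 15 stood out, where chance gives about 1 in 20 for separate tests. These groups share libraries and genes, so the 15 are not separate and cannot be set against that rate. Knockout 6 was far below the other knockouts in 8 genes of fibres: Tnni2 at 812 CPM (others 2394 to 4130.26), Myom2 at 395 (753 to 881), Mybpc1 at 634 (1243 to 1719), Acta1 at 6085 (11369 to 15840.2), Myom1 at 234 (465 to 598), Tcap at 81.6 (292 to 604), Ldb3 at 321 (683 to 894) and Xirp2 at 119 (322 to 564). In the same library Tnnt2 took 3.74% of troponin T, where the other knockouts had 1.03% to 1.77%. Control 2 was low in Xirp2, at 169 CPM (others 340 to 491).

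The slow light chains stood out in knockout 2. Myl2 was at 22.3 CPM there (others 0.382 to 1.42) and took 0.227% of regulatory light chain (others 0.0031% to 0.0113%), and Myl3 took 0.374% of the essential light chains (0.0458% to 0.0855%). Among controls, the Myl2 share was high in control 6, at 0.0832% (others 0.0020% to 0.0122%). Xirp1 was high in control 1, at 79.5 CPM (others 50.1 to 59.5).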

How the results depend on the processing

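No member was called under any of the 24 alternatives, and no isoform share under any of its 16. Between 27 (without control 2) and 38 members had a positive fold change. Genes called over all tested genes numbered 131 in the analysis reported, 399 with DESeq2, 393 with limma-voom, 236 with the replicate block, 237 with 1 surrogate variable, 9 without the 3 libraries of lowest mitochondrial share, and 6 (without knockout 3) to 214 (without knockout 2) with each library left out. The cause was not tested. Members at an unadjusted p under 0.05 numbered 3 to 8.

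Signs reversed as follows. Tnni2 was 0.0046 with upper quartile scaling, 0.0202 with total counts, 0.0012 with the replicate block, 0.27 with the mitochondrial covariate and 0.0187 on FPKM with either pseudocount. With limma-voom Mylpf was -0.0044, Mybpc2 -0.0675, Myl3 -0.0073 and Tcap -0.0501. With the replicate block Mylpf was -0.0063, Mybpc2 -0.0043 and Xirp2 -0.0114, and with the surrogate variable Mylpf was -0.0284. Without the 3 libraries Actn3 was -0.0145, Tnnt3 -0.0415, Tpm1 -0.133, Myl1 -0.0362, Mylpf -0.0971, Mybpc2 -0.0872, Myoz1 -0.0436, Tcap -0.0710 and Mylk2 -0.0229, and the share differences were 0.0988 points for Tnnc1, 0.398 for Tpm3, 2.19 for Myl4 and 1.03 for Myoz2.

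With each library left out, these log2 fold changes crossed 0: Actn3 (-0.0019 to 0.26), Mybpc2 (-0.0902 to 0.38), Myl1 (-0.0111 to 0.27), Myl2 (-1.03 to 2.86), Myl3 (-0.0764 to 0.69), Mylk2 (-0.0148 to 0.43), Mylpf (-0.14 to 0.16), Myoz1 (-0.0290 to 0.29), Tcap (-0.0836 to 0.30), Tnni2 (-0.18 to 0.18), Tnnt3 (-0.0394 to 0.28), Tpm1 (-0.11 to 0.20), Tpm3 (-0.0147 to 0.28), Xirp2 (-0.0765 to 0.26) and the fast median (-0.0290 to 0.28). So did the share differences of Actc1 (-0.569 to 1.94), Actn2 (-0.804 to 2.23), Mybpc1 (-2.30 to 5.06), Myl2 (-0.0116 to 0.0383), Myl3 (-0.0107 to 0.0548), Myl4 (-1.60 to 1.39), Myom3 (-0.275 to 2.64), Myoz2 (-1.63 to 0.763), Tnnc1 (-0.156 to 0.0174), Tnni1 (-0.547 to 2.84), Tnnt1 (-0.363 to 1.06), Tnnt2 (-0.241 to 0.465) and Tpm3 (-0.347 to 0.474).

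Same-numbered libraries correlated from -0.133 to 0.464 in their deviations, and 2 of 6 numbers, 4 and 6, matched their own partner best. Whether the numbers pair the samples cannot be told from these correlations. The replicate block gave 35 positive members. Depth limits Tnnc2 (3 to 45 reads) and Myl2 (5 to 398 reads).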

Other observations

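The lists of other fast and other slow genes hold 6 calcium-handling genes, chosen here after their values were seen and compared with no test between the 3 libraries of lowest mitochondrial share (controls 2 and 6 and knockout 6) and the other 9. Parvalbumin (Pvalb), the calcium buffer of the fastest fibres, was at 399 to 553 CPM in the 3 and at 1501 to 2879 in the others. The fast calcium pump Atp2a1 was at 1159.67 to 1225 and at 2837 to 4014 CPM, and fast calsequestrin, Casq1, at 302 to 387 and at 627 to 989. The slow pump Atp2a2 was at 445 to 475 CPM in the 3 and at 351 to 583 in the others, and Casq2 at 414 to 488 and at 373 to 752. Phospholamban (Pln), which inhibits the slow pump, was at 0.0508 to 0.184 and at 0.0977 to 0.662 CPM, too few reads to be tested. None of the 5 tested genes was called between knockout and control by edgeR.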
